A study of Oryza sativa Japonica Group with 12 samples.

Results

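Lines 8 and 7 are rice lines that carry the same construct, an artificial microRNA against YGL1 that the 35S promoter drives throughout the plant. Their 8 leaf libraries, of 12 in all, were chosen by line number in the sample titles. Line8 comprised 4 libraries of the homozygous transgenic line 8. Line7 comprised 4 libraries of the homozygous transgenic line 7. WT comprised 4 libraries of the unmodified parent cultivar Nipponbare (Oryza sativa, Japonica Group). All leaves came from field-grown plants at 10 in the morning. No group carried a control construct, so effects of the microRNA cannot be told apart from those of making or carrying the transgene. The study also describes a line 1, which was not analysed here.

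YGL1 encodes chlorophyll synthase, which joins chlorophyllide to its long hydrophobic tail in the last part of chlorophyll synthesis, inside the chloroplast. Rice with a defective YGL1 has yellow-green leaves. An artificial microRNA is a designed small RNA that pairs with a chosen messenger RNA and directs its cleavage. Independent lines of such a construct can differ in how much small RNA they make and in where the transgene sits in the genome, and genes near or in the insertion can change in a single line. A comparison between lines of the same construct therefore asks which genes follow the level of the target and which differ by line.

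The Line8 libraries held 15786323 to 17303693 counts, the Line7 libraries 14746933 to 16979263 and the WT libraries 15465403 to 19822636. Replicates are not stated to be separate plants, and p-values then reflect only how much these samples vary, which may be technical. Several seasons and sites are described, with none assigned to a library. The table pairs nuclear locus IDs with no gene name, and 0 of the 340 members written down for nuclear pathways could be named, so pathways of nuclear genes were not analysed here and the leaf label was not checked against nuclear markers. The 112 genes of the plastid and mitochondrion carry symbols.

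A library of each line stood apart from the others of its line. Line7 replicate 2 had rank correlations (Spearman, across 20217 genes, which are not independent replicates) of 0.856 to 0.92 with the Line8 libraries, 0.912 to 0.942 with the other Line7 libraries and 0.961 to 0.983 with the WT libraries. Its counts differed from those of the other Line7 libraries by a chi-square of 84.2 to 122 per degree of freedom, against 16.1 to 24.9 among the other Line7 libraries. For Line8 replicate 3 the same measure was 90.2 to 120 with the other Line8 libraries, against 21.2 to 51.6 among those. Results are given with all libraries and without Line7 replicate 2, and the effect of leaving out Line8 replicate 3 is given where it changes a count.

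The locus taken as the target, Os05g0349700, was lower in Line8 than in WT, and its level did not separate Line8 from the other 3 Line7 libraries. The files do not pair this ID with a name. It was at 26.1, 33.4, 23.8 and 24.0 CPM (edgeR's normalised read count, on TMM-scaled library sizes) in Line8 replicates 1 to 4. It was at 34.4, 68.1, 27.4 and 27.8 CPM in Line7 replicates 1 to 4, and at 57.7, 44.2, 47.8 and 69.1 CPM in WT replicates 1 to 4. Line7 replicate 2 was within the WT range, and the other 3 Line7 libraries overlapped Line8 and lay below every WT library. The means were 26.8 ± 4.54 CPM in Line8 and 39.4 ± 19.4 CPM in Line7 (SD, n = 4 each). The Line7 mean was 29.9 ± 3.94 CPM without replicate 2 (SD, n = 3).

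**Figure D1:**
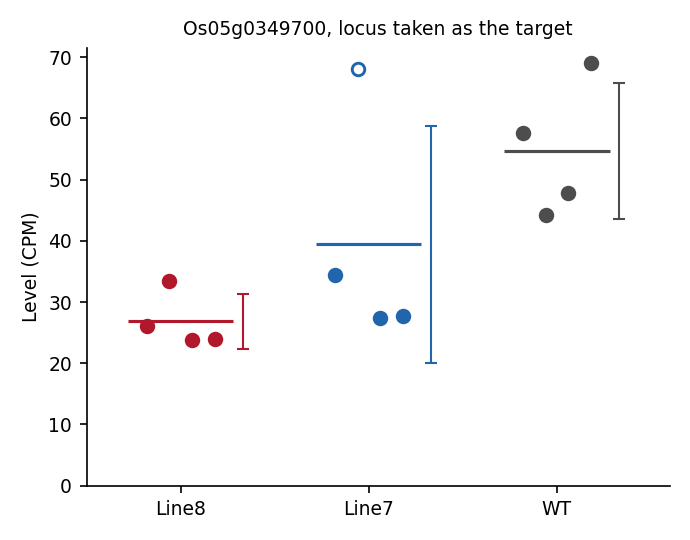
Level of Os05g0349700 in CPM on the y axis, by group on the x axis; each point is a library, the horizontal line is the mean and the bar beside it ± SD over 4 libraries, and the open point is Line7 replicate 2. Line7 replicate 2, at 68.1 CPM, lies among the WT points, and the other Line7 points lie between 27.4 and 34.4 CPM beside the Line8 points.

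Between the lines, the log2 fold change of Os05g0349700 was -0.56 with all libraries (SE 0.277, adjusted p = 0.331, edgeR quasi-likelihood test with Benjamini-Hochberg adjustment). It was -0.16 without Line7 replicate 2 (SE 0.188, adjusted p = 0.741, same test). The exact two-sided permutation test on CPM gave p = 0.171 with all libraries and p = 0.4 without that library, where the smallest value either design allows is 0.0286. With all libraries, the log2 fold change against WT by edgeR was -1.03 in Line8 (SE 0.278, adjusted p = 0.0172). For Line7 it was -0.47 (SE 0.275, adjusted p = 0.291, edgeR), which did not pass the threshold. In the fit without Line7 replicate 2, the log2 fold change against WT was -1.03 in Line8 (SE 0.175, adjusted p = 0.000849) and -0.87 in Line7 (SE 0.191, adjusted p = 0.00592). Leaving out Line7 replicate 2 thus moved the estimated difference between the lines by more than its SE, and neither value passed the threshold of 0.05.

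By edgeR, few genes passed the threshold between the lines in either version of the comparison, and the count depended strongly on the test. DESeq2 called 474 genes with all libraries and 209 without Line7 replicate 2, and limma-voom called 2 and 9. With all libraries, edgeR called 5 of 20217 tested genes at an adjusted p below 0.05 (0.0247%), 1 higher and 4 lower in Line8, with 3268 at an unadjusted p below 0.05 (16.2%). Without Line7 replicate 2 it called 7 of 20490 genes (0.0342%), all lower in Line8, with 2390 at an unadjusted p below 0.05 (11.7%). The versions shared 2 called genes. For the count of 0 genes higher in Line8 in the second version, 1142 genes were higher at an unadjusted p below 0.05 by edgeR, and DESeq2 called 102 higher and limma-voom 0 higher. The libraries of the lines did not overlap at 2015 genes with all libraries (9.97%), and at 2614 genes without Line7 replicate 2 (12.8%). Groups separate by chance more often when one of them has fewer libraries, so these shares cannot be compared directly. The median absolute log2 fold change between the lines was 0.31 with all libraries and 0.27 without that library, beside a median SE of 0.283 and 0.277.

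Against WT, each line gave far larger counts in the same fits, which share the WT libraries. Line8 against WT gave 5524 called genes of 20217 with all libraries (27.3%), and Line7 against WT gave 1409 (6.97%). In the version without Line7 replicate 2, Line8 against WT gave 6494 of 20490 genes (31.7%), and Line7 against WT gave 5156 (25.2%).

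The number of genes called between the lines changed with most of the libraries left out, and stayed small beside the 20217 genes tested. From the 5 calls with all libraries, leaving out WT replicates 1 to 4 in turn gave 2, 3, 1 and 2. Leaving out Line7 replicates 1, 3 and 4 gave 0, 1 and 3, and leaving out Line8 replicates 1 to 4 gave 3, 1, 1 and 1. From the 7 calls without Line7 replicate 2, also leaving out WT replicates 1 to 4 in turn gave 5, 2, 1 and 5. Leaving out Line7 replicates 1, 3 and 4 as well gave 0, 1 and 0. Leaving out Line8 replicates 1 to 4 gave 51, 0, 11 and 0, and of the 51 genes 42 were lower in Line8.

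The loci named below, 3 lower and 1 higher in Line8, were called with all libraries, and at each of them Line7 replicate 2 was at the level of the other Line7 libraries. Since that library entered the comparison that called them, its likeness to Line7 there is part of how they were chosen. Os03g0629800 had 0 counts in every Line8 library and in every WT library. In Line7 replicates 1 to 4 it was at 9.75, 11.2, 12.6 and 8.99 CPM, on 130 to 200 counts per library. Only Line7 therefore held transcripts counted at this locus. It was at least 231-fold lower in Line8 than in Line7 with all libraries, and at least 226-fold lower without Line7 replicate 2, against a floor of 3 counts over the Line8 group.

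Os03g0629800 passed the threshold in both versions (adjusted p = 0.00472 and 0.0187, edgeR with Benjamini-Hochberg adjustment). With all libraries its adjusted p ran from 0.00454 to 0.0563 with each library left out in turn, and passed 0.05 upward without Line7 replicate 1. In the version without Line7 replicate 2 it also lost the call without Line7 replicate 1 (0.104), 3 (0.0964) or 4 (0.091) and without Line8 replicate 2 (0.0655) or 4 (0.0752). By a fixed rule, 1 row had at least 10 counts in every Line7 library and at most 3 over all Line8 libraries, and 2 rows did so without Line7 replicate 2. The opposite pattern was found at 0 rows in either version, by counts and with no test.

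Os04g0615200 was the other locus called in both versions. It was at 1.32, 1.04, 0.652 and 0.963 CPM in Line8 replicates 1 to 4, against 7.89, 6.67, 11.6 and 5.46 CPM in Line7 replicates 1 to 4. The groups did not overlap, and the WT mean of 2.19 ± 1.09 CPM (SD, n = 4) lay between them. The log2 fold change was -2.99 with all libraries (SE 0.388, adjusted p = 0.0316) and -3.06 without Line7 replicate 2 (SE 0.41, adjusted p = 0.0254). Its adjusted p by edgeR ran from 0.0113 to 0.13 with each library left out of the first version. There it lost the call without WT replicate 3, without Line7 replicate 1 or 3, and without any of the 4 Line8 libraries. In the version without Line7 replicate 2, the adjusted p ran from 0.024 to 0.156 with each further library left out. The call was then lost without WT replicate 2 or 3, Line7 replicate 1, 3 or 4, or Line8 replicate 2 or 4.

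Os10g0537100 was at 0.299, 0, 0 and 0.12 CPM in Line8 replicates 1 to 4, against 2.12, 3.36, 3.59 and 3.46 CPM in Line7 replicates 1 to 4. All 4 Line7 libraries were above every WT library, and 3 of the 4 Line8 libraries were below every WT library (mean 0.323 ± 0.129 CPM, SD, n = 4). Against WT the log2 fold change in Line8 was -1.53 (adjusted p = 0.14, edgeR). Its log2 fold change was -4.77 with all libraries (SE 0.67, adjusted p = 0.037). It was -4.73 without Line7 replicate 2 (SE 0.715, adjusted p = 0.0516), which misses the threshold although the estimate hardly moved. With each library left out of the first version, its adjusted p ran from 0.0286 to 0.196, and the call held only without Line8 replicate 1.

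Os07g0457200 differed the other way. It was at 1.44, 1.17, 1.84 and 0.963 CPM in Line8 replicates 1 to 4, against 0.0641, 0.0561, 0 and 0.207 CPM in Line7 replicates 1 to 4. Line7 held at most 3 counts per library, and Line8 lay nearer to the WT mean of 2.1 ± 0.567 CPM. The log2 fold change was 3.97 with all libraries (SE 0.583, adjusted p = 0.0471) and 3.83 without Line7 replicate 2 (SE 0.66, adjusted p = 0.107). With each library left out of the first version, its adjusted p ran from 0.045 to 0.219, and the call held only without Line7 replicate 4.

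The remaining gene called with all libraries, also lower in Line8, was one where Line8 and not Line7 was called against WT. It was at 0.957, 0.76, 1.01 and 0.723 CPM in Line8 replicates 1 to 4, against 5, 5.1, 3.46 and 3.53 CPM in Line7 replicates 1 to 4. The lines did not overlap, and WT averaged 2.81 ± 0.934 CPM (SD, n = 4). Line8 differed from Line7 by a log2 fold change of -2.3 (SE 0.316, adjusted p = 0.037), and against WT it was -1.69 in Line8 (adjusted p = 0.00335) and 0.61 in Line7 (adjusted p = 0.201), by edgeR. With each library left out in turn the adjusted p between the lines ran from 0.043 to 0.189, and the call held only without WT replicate 2.

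**Figure D2:**
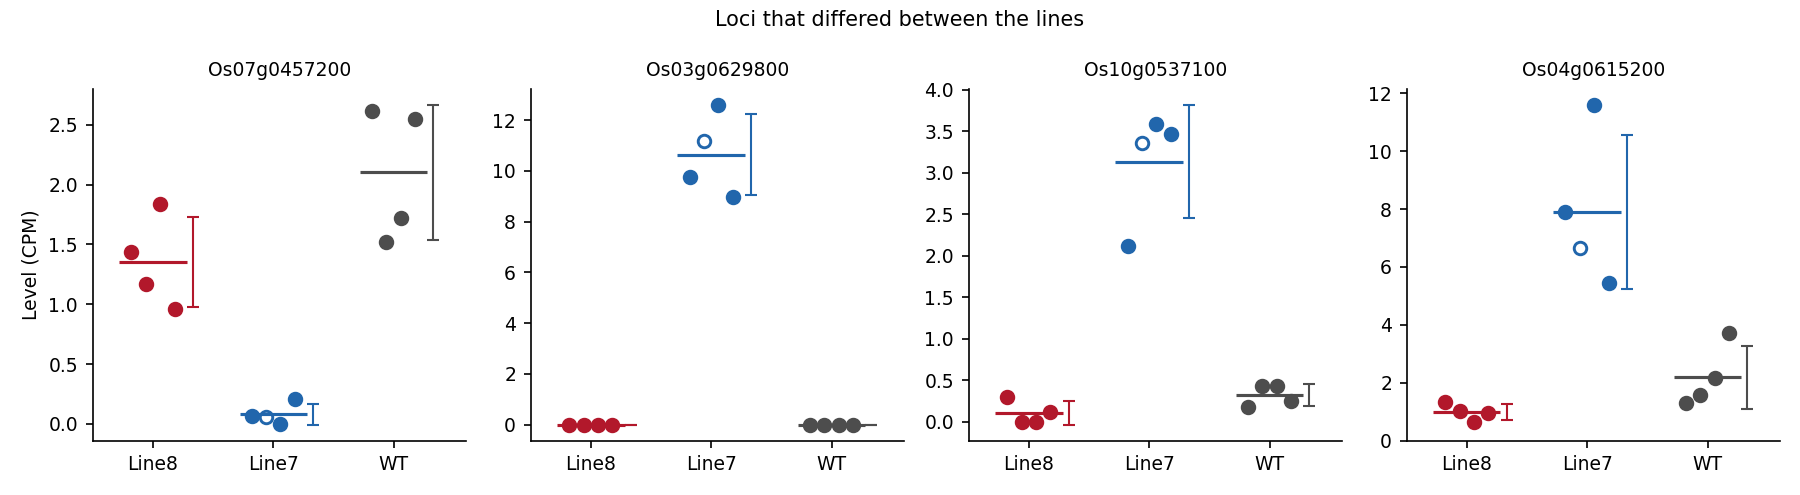
Level in CPM on the y axis of each panel for Os07g0457200, Os03g0629800, Os10g0537100 and Os04g0615200, by group on the x axis; each point is a library, the line is the mean, the bar ± SD over 4 libraries and the open point Line7 replicate 2. At all 4 loci the open point lies within or beside the other Line7 points, and the Line8 and Line7 points do not overlap.

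Of all 10 genes called in either version, 9 were lower in Line8. At 8 of the 10 the Line7 libraries other than replicate 2 lay farther from WT than Line8 did. The 7 genes called without Line7 replicate 2 allow that library to be placed, since it was not used to call them. It was nearer to the other Line7 libraries than to Line8 at 3 of these 7, and nearer to the other Line7 libraries than to WT at 4. In that fit all 7 were also called in Line7 against WT, beside 25.2% of all genes, and 4 in Line8 against WT, beside 31.7%. Both comparisons share libraries with the one that chose these genes.

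At most other genes that set Line7 apart from WT, Line7 replicate 2 was nearer to the WT level. Without it, 3058 genes were called higher in Line7 than in WT, with a median log2 difference of 1.34 (14.9% of the genes tested). In Line7 replicate 2 these genes had a median log2 difference of 0.06 from WT and -1.2 from the other Line7 libraries, and 2828 of them (92.5%) were nearer to WT. The 2098 genes called lower (10.2%) had a median of -0.91 in the other Line7 libraries and -0.13 in replicate 2, which was nearer to WT at 1863 of them (88.8%). Over all 20490 tested genes it was nearer to WT at 14628 (71.4%). It was nearer to the other Line7 libraries at 230 of the genes called higher and 235 of those called lower. What sets this library apart from the others of its line was not tested.

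**Figure D3:**
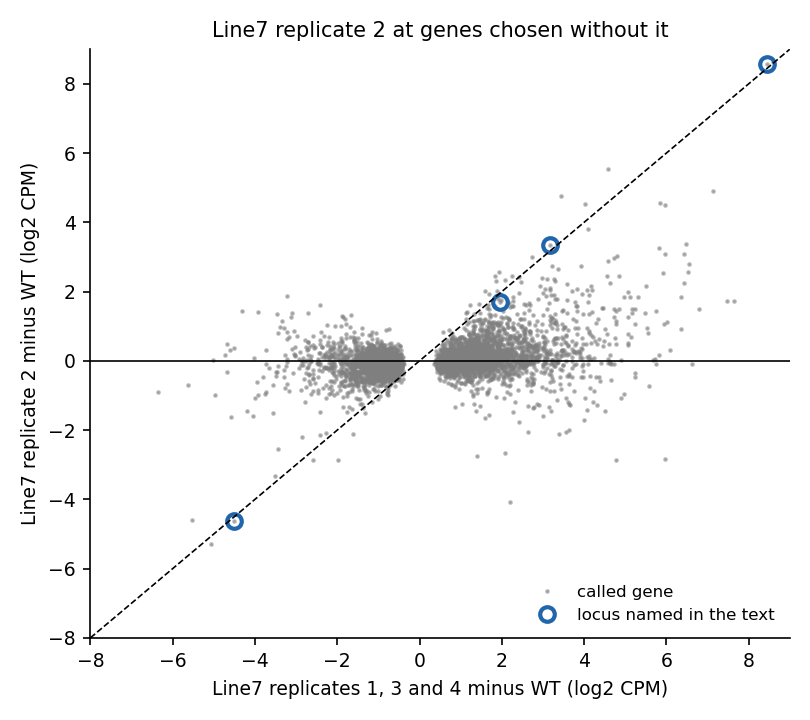
Each grey point is a gene called in Line7 against WT without Line7 replicate 2; the x axis is the mean log2 CPM of Line7 replicates 1, 3 and 4 minus the WT mean, and the y axis is that of Line7 replicate 2 minus the WT mean. The solid line marks the WT level and the dashed line equal values; most points lie along the solid line, and the 4 circled loci of the text lie on or near the dashed line.

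The question of which genes follow the depth of the knock-down was put to the line libraries alone. Each gene was fitted with a line term and with the log2 level of Os05g0349700, which was left out of the genes tested, so a slope is the log2 change of a gene per doubling of the target. In the 8 libraries the target ran from 23.8 to 68.1 CPM, a 2.87-fold range. edgeR called 0 of 19541 genes for the slope (0%), with 3042 at an unadjusted p below 0.05 (15.6%). The line term called 1 gene (0.00512%), Os03g0629800, lower in Line8, with 1398 at an unadjusted p below 0.05. Only edgeR was run on this fit.

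These counts rested on the same libraries that stood apart. Without Line8 replicate 3 the slope was called at 569 of 19873 genes (2.86%), 180 that rose and 389 that fell as the target rose, with 4625 at an unadjusted p below 0.05 (23.3%). Without Line8 replicate 2 it was called at 1 gene, and without any other line library at 0. The target ran from 23.8 to 34.4 CPM only without Line7 replicate 2, a 1.45-fold range, and 0 of 19780 genes were called, with 165 at an unadjusted p below 0.05 (0.834%). The median SE of a slope was then 0.78, against 0.33 with all 8 libraries, where the median absolute slope was 0.34. Without both Line7 replicate 2 and Line8 replicate 3, 0 of 19567 genes were called (0%), with 199 at an unadjusted p below 0.05 (1.02%). For the line term, leaving out Line8 replicate 1 gave 47 called genes, 45 of them lower in Line8.

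The estimates for organelle genes ran opposite to the level of the target. In the 8 line libraries all 22 tested organelle genes had a negative slope, with a median of -1.67 beside 0.00 over all tested genes. At an unadjusted p below 0.05, 14 of the 22 (63.6%) passed, all with a negative slope, beside 15.6% of all genes, and 0 passed after adjustment (lowest adjusted p = 0.113, edgeR). Without Line7 replicate 2, 22 of 23 had a negative slope, with a median of -1.55 beside -0.01 over all tested genes, and 3 had an unadjusted p below 0.05, namely atpA, mat-r and rps4, beside 0.834% of all genes. Without Line8 replicate 3, 21 of 22 were negative and 3 were called, beside 2.86% of all genes, namely ccmFn, mat-r and rps4, all falling as the target rose. Without both libraries, 18 of 22 were negative, the median was -0.78 and 1, atpA, had an unadjusted p below 0.05, beside 1.02% of all genes. The gene rps4, for a ribosomal protein, was named here after its values were seen.

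The organelle genes share their library, and the part of a library's counts that they held moved with them. They made up 0.00932, 0.00481, 0.0141 and 0.0065% of counts in Line8 replicates 1 to 4. They made up 0.00838, 0.00381, 0.00976 and 0.00717% in Line7 replicates 1 to 4, and 0.00469 to 0.00689% in WT. Line8 replicate 3, with the lowest level of the target, had the highest share. Line7 replicate 2, with the highest level of the target among the lines, had the lowest. The share did not follow the target throughout. Line8 replicate 4 had nearly the same target level as Line8 replicate 3 (24.0 against 23.8 CPM), with a share of 0.0065% against 0.0141%. Among WT libraries, replicate 2 had both the lowest target level, 44.2 CPM, and the lowest share, 0.00469%. In both lines the share was highest in replicate 3, then 1, then 4, and lowest in replicate 2, which was also the lowest in WT. Replicate 2 also had the highest target level of each line, 33.4 CPM in Line8 and 68.1 CPM in Line7. The slope fit had no replicate term, so it cannot tell the target's level from replicate number. In bulk samples, fewer cells of a type and less RNA per cell cannot be told apart. Whether messenger RNA was selected before sequencing is not stated, and its part in these shares was not tested. At shares this small, only 23 of the 112 organelle genes passed the filter with all libraries. Whether the CPM of organelle genes follow their expression in the leaf was not tested.

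The steepest slope in the 8 libraries was that of mat-r, which encodes a maturase thought to help splice mitochondrial introns. It was -3.39 (SE 0.612, adjusted p = 0.113, edgeR). It was -2.88 without Line7 replicate 2 (SE 1.11, adjusted p = 1), and -3.21 without Line8 replicate 3 (SE 0.624, adjusted p = 0.0436). The level of mat-r was 2.33, 0.967, 3.44 and 1.81 CPM in Line8 replicates 1 to 4, against 0.962, 0.0561, 2.08 and 1.38 CPM in Line7 replicates 1 to 4. Line7 replicate 2, with 1 count, was the lowest of all, and Line8 replicate 2 was the lowest of its line. The groups overlapped, and the log2 fold change between the lines was 0.94 with all libraries (adjusted p = 0.467) and 0.54 without Line7 replicate 2 (adjusted p = 0.65).

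Among the plastid genes, psbB, which encodes the CP47 chlorophyll-binding protein of photosystem II, had a slope of -1.13 in the 8 libraries (SE 0.454, adjusted p = 0.277). The gene psaC, which encodes an iron-sulfur subunit of photosystem I, had a slope of -0.03 (SE 0.404, adjusted p = 0.979). Neither slope passed the threshold.

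Between the lines as groups, no organelle gene passed the threshold by edgeR, with or without Line7 replicate 2. With all libraries 0 of 23 tested genes were called, beside 0.0247% of all genes, and 2, ccmC and rps7-3, had an unadjusted p below 0.05, beside 16.2% of all genes. DESeq2 called 1, ccmC, and limma-voom called 0. In the other version 0 of 24 were called, beside 0.0342% of all genes, and DESeq2 and limma-voom called 0 each. There 2, ccmC and rps16, had an unadjusted p below 0.05, beside 11.7% of all genes. The median log2 fold change of the organelle genes was 0.41 with all libraries, beside -0.019 over all genes. It was 0.07 without Line7 replicate 2, beside 0 over all genes. Leaving out Line8 replicate 3 gave 0.13 from all libraries and -0.15 in the other version, where leaving out Line7 replicate 4 gave -0.11.

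**Figure D4:**
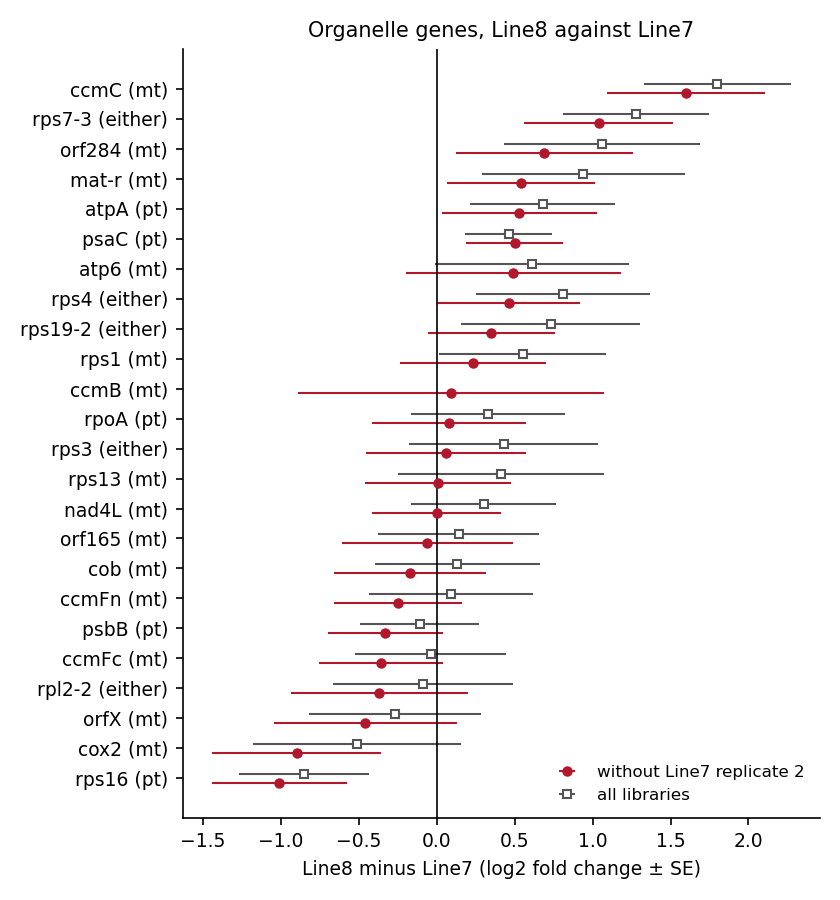
Log2 fold change of Line8 against Line7 on the x axis, with its SE as a bar, for the organelle genes on the y axis; filled circles are without Line7 replicate 2 and open squares with all libraries, and mt, pt and either mark mitochondrial genes, plastid genes and those whose symbol was not assigned. Estimates with all libraries lie to the right of those without Line7 replicate 2 for all but psaC, ccmB was tested only without that library, and the medians are 0.41 and 0.07.

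Of the mitochondrial genes, 13 were tested with all libraries and 14 without Line7 replicate 2, with 0 called in either and medians of 0.30 and 0.00. The clearest was ccmC, which acts in the assembly of cytochrome c by moving haem across the inner membrane. It was at 1.79, 1.52, 2.78 and 0.783 CPM in Line8 replicates 1 to 4, against 0.577, 0.28, 0.629 and 0.484 CPM in Line7 replicates 1 to 4. The groups did not overlap, and Line7 was near the WT mean of 0.583 ± 0.242 CPM (SD, n = 4). With all libraries ccmC was called higher in Line8 than in WT (log2 fold change 1.55, adjusted p = 0.0257, edgeR). Between the lines the log2 fold change was 1.80 with all libraries (SE 0.472, adjusted p = 0.202) and 1.60 without Line7 replicate 2 (SE 0.505, adjusted p = 0.34), by edgeR. The other 3 genes of cytochrome c maturation did not share this pattern in their estimates, which were -0.36 for ccmFc, -0.25 for ccmFn and 0.09 for ccmB without Line7 replicate 2.

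Subunits of the respiratory chain gave estimates on both sides of 0. The gene cox2, for a subunit of cytochrome c oxidase, was at 1.26, 0.553, 0.711 and 0.422 CPM in Line8 replicates 1 to 4, against 1.15, 0.112, 1.26 and 1.73 CPM in Line7 replicates 1 to 4. The groups overlapped, and the log2 fold change was -0.51 with all libraries (adjusted p = 0.706) and -0.90 without Line7 replicate 2 (SE 0.543, adjusted p = 0.515). The gene cob, for cytochrome b of complex III, had a log2 fold change of 0.13 and -0.17 in the 2 versions, and atp6, for a subunit of ATP synthase, one of 0.61 and 0.49. Without Line8 replicate 3, where atp6 was at 3.14 CPM against 0.345 to 0.658 CPM in the other Line8 libraries, these became -0.58 and -0.7. For nad4L, a subunit of complex I, the difference was 0.00 without Line7 replicate 2 (SE 0.413, adjusted p = 1). In that fit nad4L was called higher in Line7 than in WT (log2 fold change 1.70, adjusted p = 0.0132), and with all libraries it was called higher in Line8 than in WT (1.70, adjusted p = 0.0236). So were ccmFn, orf284, rps13 and rps19-2 in Line7, and ccmC, orf284 and rps19-2 in Line8, in the same fits. Over all genes, 25.2% were called in Line7 and 27.3% in Line8 there, in either direction. The genes rps13 and rps19-2, for ribosomal proteins, were named for these calls.

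Of the plastid genes 5 were tested in each version, with 0 called and medians of 0.33 and 0.08. The highest was psaC, at 11.4, 17.8, 34.8 and 14.2 CPM in Line8 replicates 1 to 4, against 12.7, 15.4, 15 and 13.8 CPM in Line7 replicates 1 to 4. Line8 replicate 3 was the highest of the 12 libraries, and the other 3 Line8 libraries, like all 4 Line7 libraries, lay below the WT mean of 25.4 ± 2.68 CPM. The log2 fold change between the lines was 0.50 without Line7 replicate 2 (SE 0.311, adjusted p = 0.526). The gene psbB was at 18.4, 5.6, 20.6 and 8.85 CPM in Line8 replicates 1 to 4, against 17.1, 7.46, 14.8 and 18.5 CPM in Line7 replicates 1 to 4. Replicate 2 was the lowest library in both lines, the groups overlapped, and the log2 fold change was -0.33 without Line7 replicate 2 (SE 0.369, adjusted p = 0.722).

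The genes atpA, for the alpha subunit of the plastid ATP synthase, and rpoA, for a subunit of the plastid RNA polymerase, had log2 fold changes of 0.53 and 0.08 without Line7 replicate 2 (adjusted p = 0.67 and 0.955). The plastid gene with the largest estimate was rps16, for a protein of the small ribosomal subunit. It was at 0.478, 0.691, 1.48 and 0.542 CPM in Line8 replicates 1 to 4, against 1.03, 0.953, 1.95 and 1.87 CPM in Line7 replicates 1 to 4. Only Line8 replicate 3 lay inside the Line7 range, and WT averaged 1.74 ± 0.229 CPM (SD, n = 4). The log2 fold change was -0.85 with all libraries (SE 0.417, adjusted p = 0.329) and -1.01 without Line7 replicate 2 (SE 0.435, adjusted p = 0.417).

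Of the 8 tested genes for ribosomal proteins, 6 had a positive estimate in each version. The largest was that of rps7-3, at 1.38, 0.691, 1.6 and 0.963 CPM in Line8 replicates 1 to 4, against 0.705, 0.224, 0.629 and 0.346 CPM in Line7 replicates 1 to 4. Line8 replicate 2 was just below the highest Line7 library, and the other 3 Line8 libraries were above all of Line7. The log2 fold change was 1.28 with all libraries (SE 0.467, adjusted p = 0.244) and 1.04 without Line7 replicate 2 (SE 0.478, adjusted p = 0.429). For rpl2-2 the estimates were -0.09 and -0.37. Of the mitochondrial open reading frames, orf284 had 1.06 and 0.69 (adjusted p = 0.407 and 0.626), and orfX had -0.27 and -0.46 (adjusted p = 0.823 and 0.756).

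**Figure D5:**
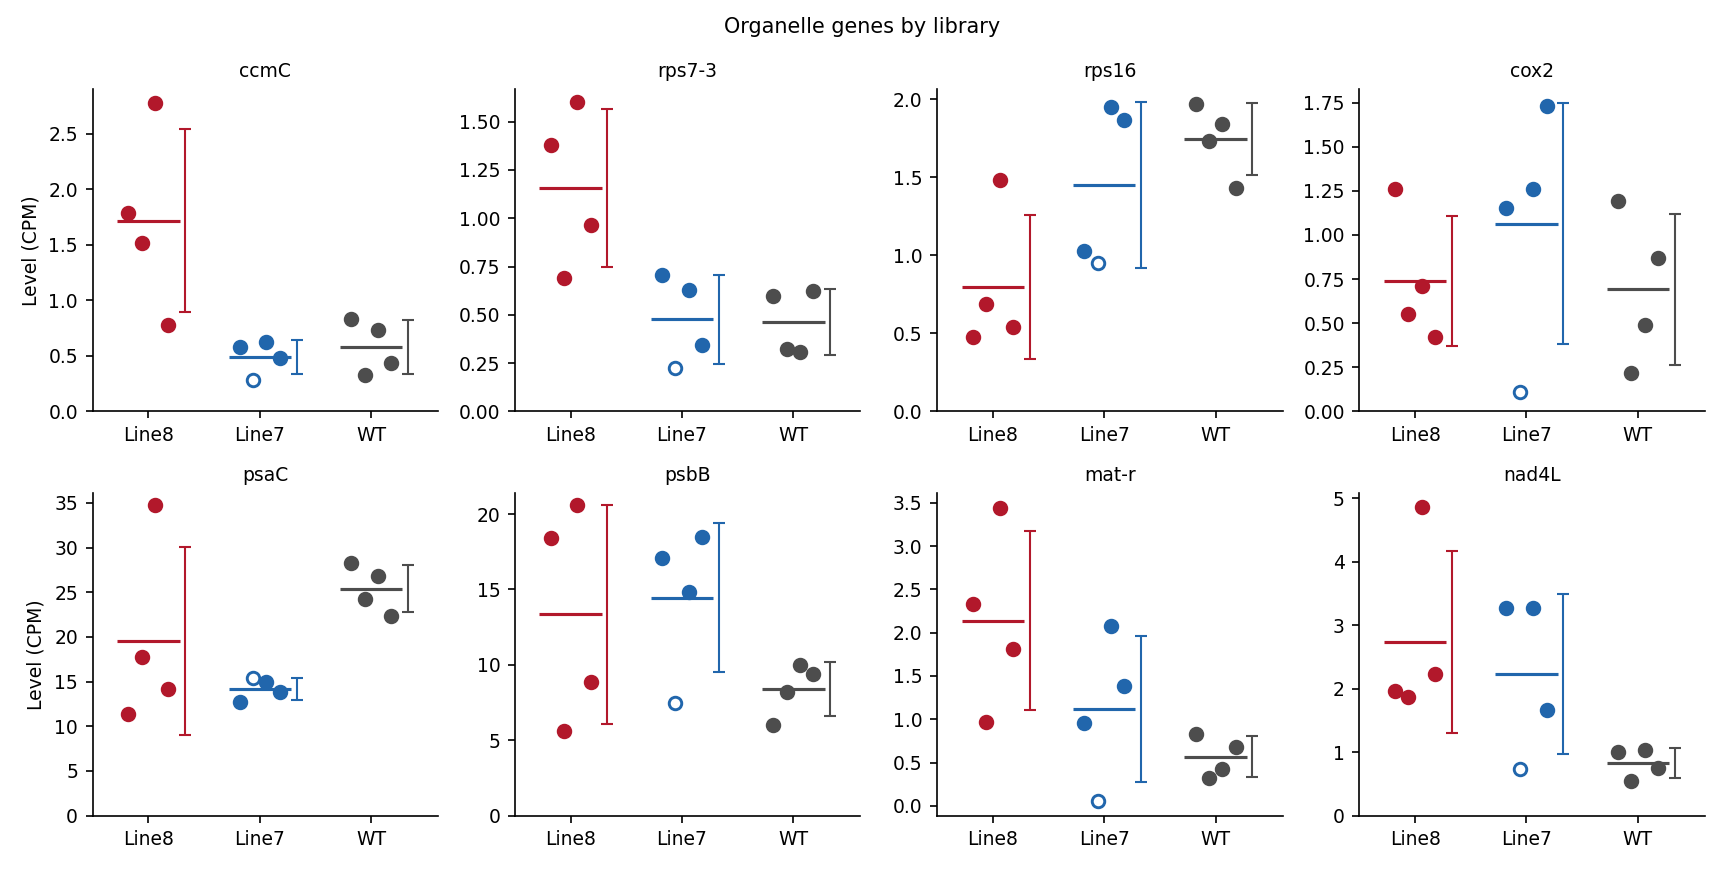
Level in CPM on the y axis of each panel for ccmC, rps7-3, rps16, cox2, psaC, psbB, mat-r and nad4L, by group on the x axis; each point is a library, the line is the mean, the bar ± SD over 4 libraries and the open point Line7 replicate 2. The lines are apart at ccmC only, and the open point is the lowest Line7 point in every panel but psaC.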

How the data were processed

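Leaf RNA was extracted with Trizol, per the labels' protocols. The authors deposited whole-number counts per annotated row and library, for 38978 rows. The aligner, counter, genome build and strandedness are not stated in the labels or the file, so reads of overlapping, antisense or near-identical genes may be shared or split. Libraries were grouped by title. Rows were kept by filterByExpr, scaled by TMM and fitted with edgeR 4.0.16 (glmQLFit, robust, and glmQLFTest) in R 4.3.3, over 12 libraries or the 11 without Line7 replicate 2. P-values were adjusted by Benjamini-Hochberg over all tested genes at 0.05. The slope was fitted over the 8 or 7 line libraries with a line term. CPM are on the scale of the 12-library fit. The scripts were tested on simulated data. DESeq2 1.42.0 and limma-voom (limma 3.58.1) were alternatives. The floor covers counting error only. SEs come from the edgeR fits and include the spread between libraries. The RefSeq gene table (assembly ASM3414082v1) assigned 92 of the 112 organelle genes, 46 each to the plastid and the mitochondrion, and matched 1 of 37849 nuclear IDs. The members and lists were chosen with earlier results of these data known. Organelle genes were named as up to 2 per list with the smallest p without Line7 replicate 2 and the most abundant. Other than the target's, nuclear IDs were picked with their values known. ccmB was named because its list has only 4 genes.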

Additional observations from a re-analysis of the deposited data

Results flagged for a closer look

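A value far from the rest was looked for in 72 groups of 4 libraries. Those of Os03g0629800 in Line8 and in WT held only 0 counts and could not be tested. In the others, 4 values lay farther from their group than Dixon's critical value allows. About 1 in 20 groups passes by chance when groups are independent. The groups here share libraries, so that rate does not apply directly. Line8 replicate 3 was the high value at 3 mitochondrial genes, atp6 (3.14 CPM), nad4L (4.86 CPM) and orfX (1.18 CPM). The same library held the largest organelle share of all libraries, 0.0141% of counts. Line7 replicate 1 was the low value of its group at Os10g0537100 (2.12 CPM). At the target, Line7 replicate 2 had a gap of 0.828 of its group's range, just under the critical value.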

How the results depend on the processing

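The count of genes called between the lines depended on the test and the libraries. With all libraries (5 called), DESeq2 called 474 (192 higher, 282 lower), limma-voom 2, a fit of the line libraries only 1, and leaving out each library in turn gave 0 to 7. Without Line7 replicate 2 (7 called), DESeq2 called 209 (102 higher, 107 lower), the line libraries only 1, and leaving out each further library 0 to 51. The cause was not tested. With the replicate number as a block, 0 were called in either version. Deviations of same-numbered Line8 and Line7 libraries correlated at 0.183, 0.251, -0.00994 and 0.0792, and 2 of the 4 are over 0.1. Those of Line8 with WT were -0.367, 0.31, -0.227 and -0.0209. Those of Line7 with WT were 0.165, -0.0201, -0.0698 and -0.198. The values between the lines are thus no larger than some of those with WT, which take both signs. The labels do not pair the libraries, and the organelle share had the same order over replicate numbers in both lines, a hint from the data and not from the design. DESeq2 also called 1 organelle gene with all libraries. The slope was called at 785 genes with no line term, and at 0 to 569 with a library left out. The target's difference stayed negative with each library left out, at -0.7 to -0.16 from all libraries and -0.23 to -0.04 without Line7 replicate 2. Other size factors and filters gave 4 to 7 and 6 to 10 calls, and the other size factors moved the median of all genes by less than 0.1.

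Some organelle estimates changed sign, most of them near 0, and none of these passed the threshold. That of atp6, 0.61 and 0.49 in the 2 versions, did so without Line8 replicate 3. With all libraries, ccmFc was 0.2 in limma-voom and 0.09 with the replicate block. Without Line7 replicate 2, nad4L was 0.02 with RLE size factors, 0 with no filter, 0.02 in DESeq2 and 0.13 with the replicate block. There rpoA was 0 with library totals only, -0.08 in limma-voom and -0.07 with the block, atp6 was -0.05 in limma-voom, and ccmFn was 0.03 with the block. With each library left out of all 12, the ranges were -0.58 to 0.96 for atp6, -0.36 to 0.19 for ccmFc, -0.25 to 0.53 for ccmFn, -0.17 to 0.46 for cob, -0.11 to 0.54 for nad4L, -0.72 to 0.12 for orfX, -0.38 to 0.19 for psbB and -0.37 to 0.28 for rpl2-2. In the other version they were -0.7 to 0.85 for atp6, -0.51 to 0.08 for ccmFn, -0.47 to 0.16 for cob, -0.42 to 0.2 for nad4L, -0.63 to 0 for rpl2-2 and -0.23 to 0.32 for rpoA. Most organelle genes held few counts, 1 to 58 per line library for mat-r, which limits what these libraries can show.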
